A study of Saccharomyces cerevisiae with 14 samples.

Results

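The genes described here are 33 translation factors of budding yeast: the proteins that start, extend and end protein synthesis on cytoplasmic ribosomes. They were taken from a list of 34 names, and 33 of them were the only gene of a probe set in the array annotation, each with 1 probe set, among 5449 genes measured. The remaining name, TIF6B, matched no such probe set and was not analysed here. Gene expression was measured in the wild-type Saccharomyces cerevisiae strain YSBN6, grown in batch fermentors at 30 °C and pH 5 on glucose (20 g/L) with glutamine (1 g/L) as the nitrogen source. Exponentially growing cells received a pulse of rapamycin, an inhibitor of the TOR complex 1 kinase, to a final 400 µg/L. Of 14 arrays from 3 separate fermentations, named BY005, BY006 and BY007, 3 were made from cells taken 10 min before the pulse (steady state), 3 at 7 min and 3 at 24 min after it, with every fermentation present at each of these times. The arrays at 3, 10, 14, 56 and 120 min came from BY005 alone. These arrays hold no culture followed over the same times without rapamycin, so the effect of rapamycin and that of time in the fermentor cannot be told apart.

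Translation of most mRNAs starts when eIF4E binds the cap, eIF4G bridges it to the helicase eIF4A and to the poly(A)-binding protein, and eIF3 brings the small ribosomal subunit with eIF1, eIF1A, eIF5 and the eIF2 complex that carries the initiator tRNA. Each round leaves eIF2 bound to GDP, and eIF2B exchanges it for GTP, a step that amino acid starvation slows through phosphorylation of eIF2. eEF1A then delivers each aminoacyl-tRNA and is recharged by eEF1B, eEF3 is an ATPase needed by fungal ribosomes, and eRF1 with eRF3 releases the finished chain. TOR complex 1 is the nutrient-regulated kinase through which yeast adjusts ribosome production and initiation.

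Values are log2 of the deposited array intensities, and errors after ± are standard errors of a limma fit over all 14 arrays unless called SD. A gene was called changed at an adjusted p (Benjamini-Hochberg over 5449 genes) under 0.05, and all p-values of single genes are of this kind. Members replicated closely: the median SD over the 3 fermentations was 0.04 at steady state, 0.06 at 7 min and 0.07 at 24 min, against 0.07, 0.09 and 0.08 for all genes. No member was near the background of 5.63, the 95th percentile of the fission yeast probe sets. TEF2, EFB1, YEF3 and HYP2 lay within 1 log2 unit of the brightest gene at steady state, where changes can be understated. Brightness of different probe sets is not a comparison of mRNA amounts, so levels are compared only within a gene.

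The directions below rest on the authors' normalization, which makes the arrays' distributions alike. The mean of 27 hybridisation control probe sets, for transcripts added to each hybridisation mix, ranged from 9.56 to 11.76 at steady state and from 8.62 to 10.46 at 24 min. Scaling to it moved the median change of all genes at 24 min from 0.11 to 1.12, turned 18 of the 28 falls of members described below positive and left no member past the threshold. Because the controls differed this widely among arrays of the same time, the scaling adds spread between replicates. Its loss of calls and its turned signs therefore cannot settle a direction. Relative to the median gene, which such a scaling does not alter, the members' median change at 24 min was -0.90 and 32 of 33 members lay below it, with CAM1 the exception. With quantile normalization of the genes alone the median was -0.94 and the exception was EAP1. Changes are therefore to be read relative to the other genes of the same array.

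By 24 min, most mRNAs of the translation initiation machinery had fallen in all 3 fermentations. Among members the largest falls were in the scaffold eIF4G1 (TIF4631) and in the eIF3 subunits NIP1 and PRT1. TIF4632 and EAP1 were not called changed, and HCR1, CDC33 and PAB1 changed by only -0.35, -0.37 and -0.25. The mRNAs of the elongation machinery had a median change nearer 0. All 4 members near the bright end, where changes can be understated, belong to the elongation group. How far this shapes the contrast was not tested. Of 33 members, 28 were lower and 1 was higher than at steady state, where 30.4% of all genes were called lower and 44.5% higher, a direction that turned with control scaling for 18 of the 28 as given above. The members' median change was -0.79, against 0.11 for all genes, and in BY005, BY006 and BY007 taken alone it was -0.87, -0.72 and -0.82. In 28 members every array at 24 min lay below every array at steady state, as in 32% of all genes. The groups overlapped for TIF4632, EAP1, TEF2 and HYP2. Against 7 min the picture was alike, with 28 members lower and 1 higher (30.8% and 39.5% of all genes).

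**Figure D1:**
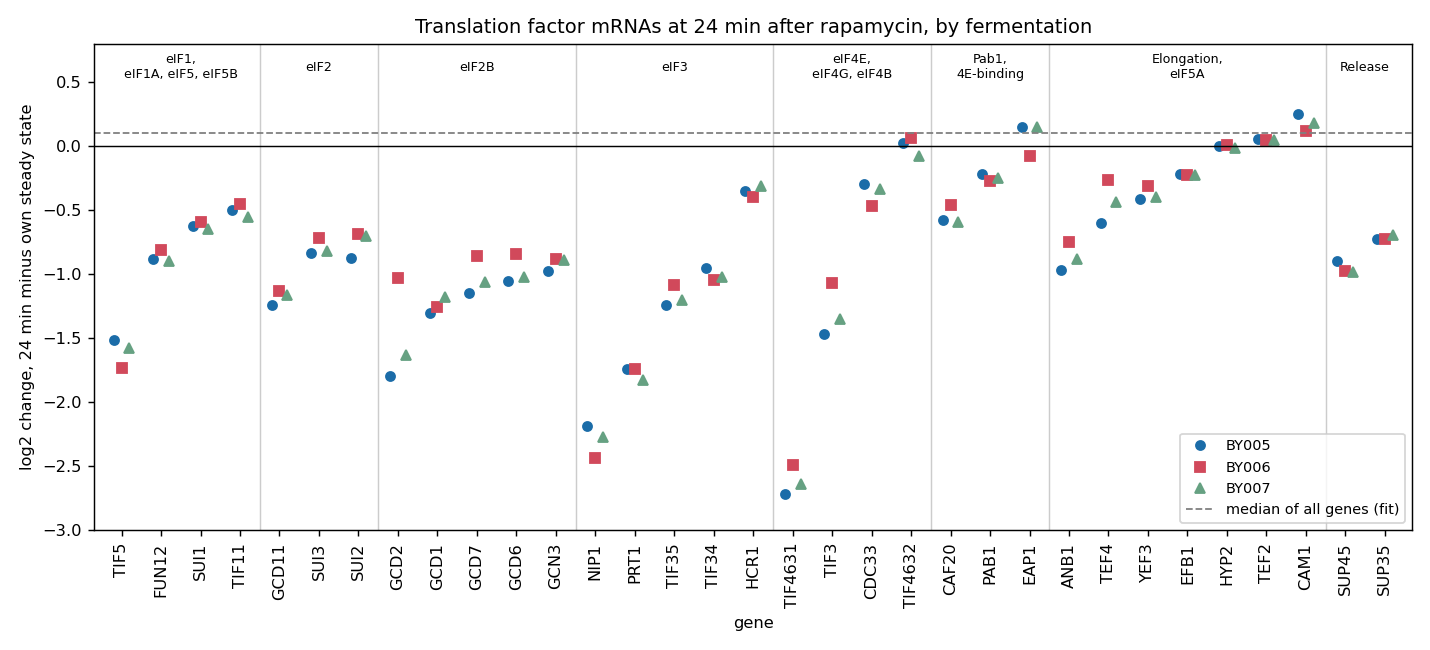
Change in log2 intensity from steady state to 24 min after rapamycin for the 33 translation factors, grouped by role, with 1 point per fermentation (3 each) and a dashed line at the median of all genes, 0.11. All 3 points of the 28 members called lower lie below 0, down to -2.72 for TIF4631, and those of CAM1 lie above it; with scaling to hybridisation controls 18 of the 28 falls turn positive.

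The 5 measured subunits of eIF3, the complex that holds the small subunit and recruits mRNA, were all lower, with a median change of -1.18. NIP1, the eIF3c subunit, read 12.42, 12.29 and 12.29 at steady state and 10.23, 9.85 and 10.02 at 24 min in BY005, BY006 and BY007. The changes within the cultures were -2.18, -2.44 and -2.27, and the fitted change was -2.30 ± 0.12 (adjusted p = 4.33e-07), a 4.92-fold fall. PRT1, the eIF3b scaffold, read 12.47, 12.39 and 12.38 at steady state and 10.73, 10.65 and 10.56 at 24 min. The groups lay far apart, and the fall was 3.41-fold (-1.77 ± 0.06, adjusted p = 9.81e-08). TIF35 (eIF3g) changed by -1.18 ± 0.05 and TIF34 (eIF3i), a WD-repeat subunit, by -1.01 ± 0.05. HCR1, the loosely held eIF3j that also acts at termination and recycling, changed least, by -0.35 ± 0.06 (adjusted p = 0.00038). The remaining large subunit, RPG1 (eIF3a), belongs to a wider list of translation genes and fell by 1.79 on the log2 scale, with an SE of 0.07, a 3.46-fold change.

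All 5 subunits of eIF2B, the guanine nucleotide exchange factor of eIF2, were lower at 24 min, with a median change of -1.02. GCD2, a regulatory subunit (eIF2Bδ), read 11.28, 11.08 and 11.32 at steady state and 9.48, 10.05 and 9.69 at 24 min. Among members it had one of the widest spreads between cultures, and its change of -1.49 ± 0.14 was still far beyond it (adjusted p = 1.26e-05). GCD1 (eIF2Bγ) read 11.79, 11.71 and 11.77 at steady state and 10.49, 10.46 and 10.59 at 24 min, a change of -1.24 ± 0.06. GCN3, the α subunit that yeast can live without and that senses phosphorylated eIF2, read 11.56, 11.57 and 11.55 at steady state and 10.58, 10.69 and 10.66 at 24 min and changed by -0.92 ± 0.04. The catalytic subunit GCD6 (ε) changed by -0.97 ± 0.07 and GCD7 (β) by -1.02 ± 0.09. No array at 24 min reached the steady state range in any of the 5 subunits.

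The 3 subunits of eIF2 itself were all lower, with a median change of -0.79. GCD11, the GTP-binding γ subunit, read 13.03, 12.93 and 12.89 at steady state and 11.80, 11.80 and 11.73 at 24 min. The late arrays all lay below the early ones (-1.18 ± 0.05, adjusted p = 2.59e-07). SUI3 (β) changed by -0.79 ± 0.04, and SUI2 (α), the subunit phosphorylated in starved cells, by -0.75 ± 0.06. Among the factors that act with eIF2 at the start codon, TIF5, the eIF5 that stimulates GTP hydrolysis by eIF2, read 12.33, 12.33 and 12.25 at steady state and 10.81, 10.60 and 10.67 at 24 min. It fell 3.05-fold (-1.61 ± 0.08, adjusted p = 4.26e-07). FUN12 (eIF5B), which joins the large subunit, changed by -0.86 ± 0.04, SUI1 (eIF1), which guards start codon choice, by -0.62 ± 0.05, and TIF11 (eIF1A) by -0.50 ± 0.06.

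The paralogs that encode the eIF4G scaffold parted. TIF4631, which encodes eIF4G1, read 11.83, 11.75 and 11.76 at steady state, 11.65, 11.71 and 11.70 at 7 min and 9.11, 9.26 and 9.12 at 24 min, and its 6.13-fold fall was the largest among the members (-2.61 ± 0.05, adjusted p = 2.6e-08). TIF4632, which encodes eIF4G2, read 10.49, 10.36 and 10.42 at steady state, 10.51, 10.49 and 10.57 at 7 min and 10.52, 10.43 and 10.35 at 24 min, so that the ranges at steady state and 24 min overlapped. Its change was 0.01 with a 95% interval from -0.13 to 0.14. The log2 difference between the paralogs within an array, TIF4631 minus TIF4632, went from 1.35 ± 0.03 (SD, n = 3) to -1.27 ± 0.12 (SD, n = 3). That shift of -2.62 lay between -2.74 and -2.56 in the 3 cultures, and control scaling leaves it as it is. An exact two-sided permutation test, which took these 6 arrays as unpaired, gave p = 0.1, the smallest it can give. It stayed at 0.1 after adjustment over the 3 pairs tested.

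The other cap-binding and mRNA-binding factors moved less than TIF4631. TIF3 (eIF4B), which helps the helicase eIF4A, read 12.79, 12.89 and 12.93 at steady state and 11.32, 11.82 and 11.57 at 24 min, with the lowest late value in BY005 (-1.30 ± 0.11, adjusted p = 9.17e-06). CDC33, the cap-binding eIF4E, read 13.42, 13.40 and 13.33 at steady state and between 12.93 and 13.12 at 24 min. Its fall was 1.29-fold (-0.37 ± 0.06, adjusted p = 0.000519), though the groups did not overlap. The eIF4E-binding repressor CAF20 changed by -0.54 ± 0.05 (adjusted p = 7.99e-06), and EAP1, which also binds eIF4E and competes with eIF4G, did not pass the test, with a change of 0.07 and a 95% interval from -0.07 to 0.21. Without the BY006 array at 24 min, where EAP1 read 10.14 against 10.33 and 10.35 in the other cultures, its change was 0.14 and passed (adjusted p = 0.0309 by limma). PAB1, the poly(A)-binding protein, changed by -0.25 ± 0.04 (adjusted p = 0.00061).

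Elongation factors had a median change of -0.22, and 4 of 7 (57.1%) were lower and 1 (14.3%) higher. Of all genes 30.4% were lower and 44.5% higher. That median includes TEF2, EFB1, YEF3 and HYP2, whose changes can be understated at the bright end. Of the rest, TEF4 and ANB1 fell and CAM1 rose. YEF3 (eEF3) read 14.16, 14.13 and 14.15 at steady state and 13.75, 13.82 and 13.75 at 24 min, a change of -0.37 ± 0.04 (adjusted p = 4.04e-05). TEF4, a γ subunit of eEF1B, read 13.57, 13.68 and 13.76 at steady state and 12.97, 13.42 and 13.32 at 24 min. The late values did not overlap the early ones, and BY005 had both the lowest level and the largest fall (-0.44 ± 0.11, adjusted p = 0.00596). Its paralog CAM1 read 12.86, 12.84 and 12.86 at steady state and 13.12, 12.95 and 13.04 at 24 min, a small rise in each culture (0.18 ± 0.05, adjusted p = 0.00906). That call was lost with quantile normalization of the genes alone (0.03, adjusted p = 0.52). EFB1, the α subunit that carries the exchange activity, changed by -0.22 ± 0.04 (adjusted p = 0.000809). TEF2, which encodes eEF1A and whose probes are shared with its copy TEF1, did not pass, at 0.05 with a 95% interval from -0.05 to 0.15.

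HYP2 and ANB1 encode eIF5A, the hypusine-bearing factor that frees ribosomes stalled at proline-rich stretches. HYP2, the form made in aerobic cells, read 14.01, 14.14 and 14.18 at steady state and 14.02, 14.15 and 14.17 at 24 min, and its change was 0.00 with a 95% interval from -0.14 to 0.15. ANB1, the form favoured when oxygen is low, read 9.76, 9.85 and 9.57 at steady state and 8.80, 9.10 and 8.69 at 24 min and fell 1.82-fold (-0.86 ± 0.15, adjusted p = 0.000695). Within an array, HYP2 minus ANB1 grew by 0.87, with 0.97, 0.76 and 0.87 in BY005, BY006 and BY007. TEF4 minus CAM1 shrank by 0.85, 0.39 and 0.62 in the same cultures, a mean shift of -0.62. Both shifts again had the smallest exact permutation p possible with 3 arrays against 3, 0.1 before and after adjustment over 3 pairs, which is not below the threshold.

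**Figure D2:**
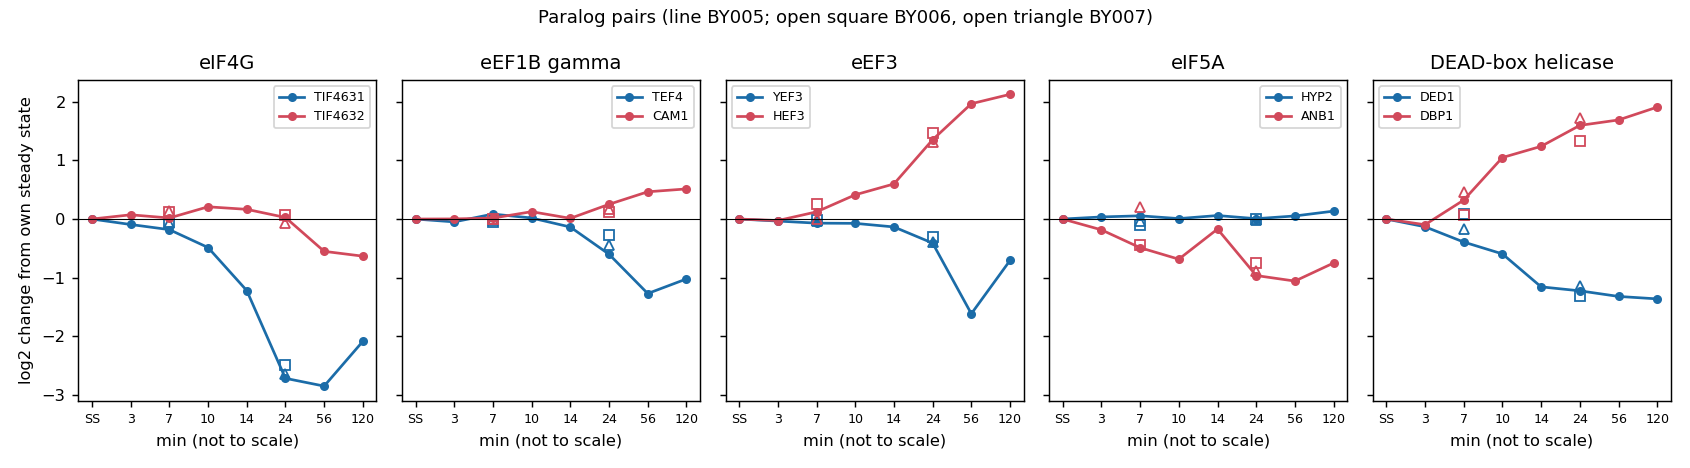
Log2 change from the steady state array of the same fermentation for 5 pairs of paralogs against time after rapamycin (min, not to scale), with lines for BY005 and open squares and triangles for BY006 and BY007 at 7 and 24 min. At 24 min TIF4631 lies 2.56 to 2.74 log2 units below TIF4632 on this axis and the members of the other pairs also lie apart; the gap within a pair does not depend on scaling by a single factor per array, while the sign of a single line can. YEF3 with HEF3 and DED1 with DBP1 were added after their values were seen.

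The release factors were both lower. SUP45 (eRF1), which reads the stop codon, read 13.02, 12.93 and 12.93 at steady state and 12.12, 11.96 and 11.95 at 24 min (-0.95 ± 0.07, adjusted p = 3.74e-06). SUP35 (eRF3), the GTPase that works with it and can form the prion [PSI+], read 12.54, 12.55 and 12.50 at steady state and 11.82, 11.82 and 11.81 at 24 min, a 1.64-fold fall (-0.71 ± 0.05, adjusted p = 1.8e-06). Neither group of arrays overlapped the other in these genes.

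At 7 min no member passed the limma test, and neither did any at 3 min. At 7 min 0.0734% of all genes were called lower and 0.826% higher, and at 3 min 0% of all genes were called. At an unadjusted p under 0.05 there were 3 of 33 members at 7 min and 0 at 3 min, against 1092 and 287 of 5449 genes, so that the members' share lay below that of all genes. Those 3 were GCN3, GCD1 and NIP1, with changes of -0.14 ± 0.04, -0.20 ± 0.06 and -0.28 ± 0.12 and adjusted p of 0.132, 0.133 and 0.238. NIP1 read 11.89, 12.27 and 12.01 at 7 min, so that BY005 had moved by -0.53 and BY006 by -0.02 from its own steady state. GCD1 read 11.46, 11.66 and 11.55, below its steady state range of 11.71 to 11.79 in each culture. It passed only when the BY006 array at 7 min was left out, with a change of -0.25 (adjusted p = 0.0333). In 5 members (15.2%) all 3 arrays at 7 min lay below all at steady state, and 5.25% of all genes did so. All 3 lay above in 1 member (3.03%), against 19.4% of all genes.

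The falls opened between 7 and 14 min in BY005, the culture with arrays at those times, and more subunits of eIF2B and eIF3 were called early than of eIF4 or the elongation factors. At 10 min 15 members were lower and 1 higher, against 15.5% and 26.6% of all genes, and at 14 min 22 were lower and 1 higher, against 28.2% and 27.3%. With the fermentation as a replicate block the counts were 13 lower and 0 higher at 10 min and 21 lower and 0 higher at 14 min. Relative to the median gene the members' median was -0.25 at 10 min and -0.48 at 14 min. Each of these times has 1 array, which was assumed to vary like the replicated times, and their differences have no replicate check of their own.

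Calls of lower at 10 min covered 5 of 5 eIF2B subunits, 4 of 5 eIF3 subunits, 1 of 3 eIF2 subunits and 1 of 7 elongation factors. The share of the elongation factors, 14.3%, was near the 15.5% of all genes. NIP1 in BY005 read 12.42 at steady state, 12.32 at 3 min, 11.89 at 7 min, 11.17 at 10 min, 10.18 at 14 min and 10.23 at 24 min. It was no lower at 24 than at 14 min, and read 9.87 at 56 min. GCN3 in the same culture read 11.56, 11.55, 11.41, 11.05, 10.54 and 10.58 at these times, with 10.27 at 56 min. TIF4631 read 11.83, 11.73, 11.65, 11.34, 10.61 and 9.11, so that its largest step came after 14 min. The calls at 10 min of GCD6 and ANB1 were lost with the replicate block (adjusted p = 0.0691 and 0.106). They were lost as well without the BY005 steady state array, for GCD6 also without BY007 at steady state or at 24 min, and for ANB1 also without BY006 at steady state, with adjusted p up to 0.0808 and 0.0871.

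Of the 22 members that fell by at least 0.5 log2 units in BY005 by 24 min, the median share of that fall already reached was 31.1% at 10 min and 71.1% at 14 min. The eIF2B subunits had covered a median of 47.8% at 10 min and 90.6% at 14 min. For the 4 eIF3 subunits concerned the medians were 28.6% and 71%, and for eIF2 they were 21.6% and 60.6%. Single subunits of both had gone past the eIF2B medians, NIP1 with 57.0% and 102.6% and SUI2 with 50.1% and 91.75%. The rest of both complexes had gone less far, so early falls were not confined to eIF2B. TIF4631 and TIF3 had covered a smaller share, with medians of 14.1% at 10 min and 36.4% at 14 min. For TIF4631 the share is of a large fall, -2.72 at 24 min in BY005. TIF4631 had changed by -0.49 at 10 min and -1.22 at 14 min, against eIF2B medians of -0.55 and -1.04 in that culture. Its small share is therefore not a later start. Among the elongation factors TEF4 had covered -2.99% and 22.7%, and ANB1 71.0% and 17.7%, the only one of the 22 to stand higher at 14 than at 10 min. These shares describe 1 culture and were not tested against each other.

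**Figure D3:**
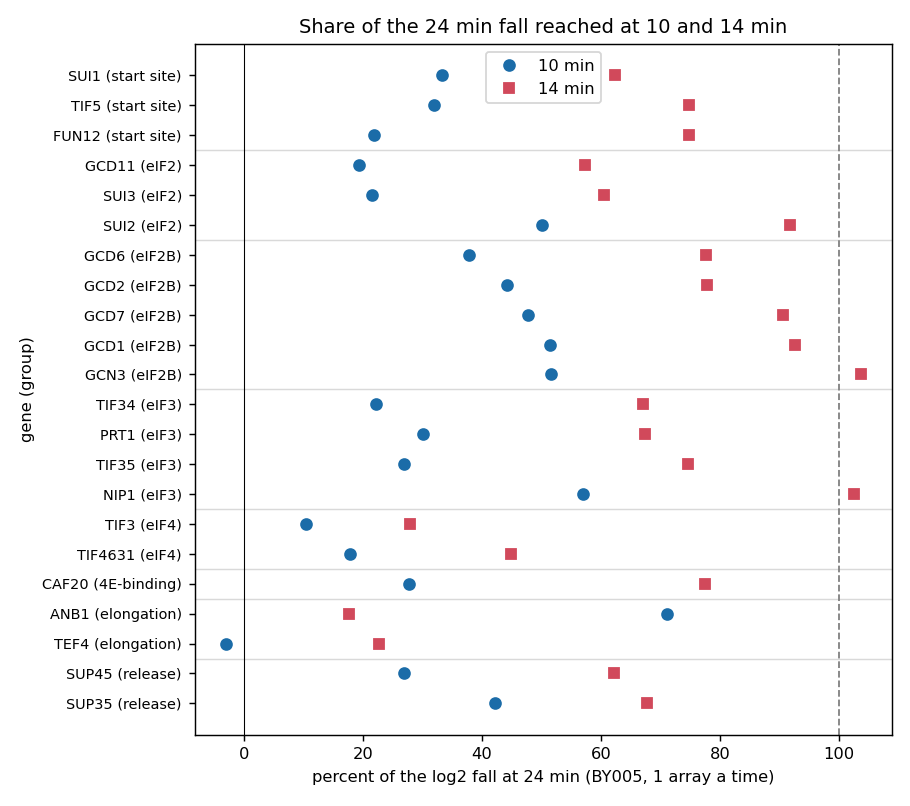
Share of the fall between steady state and 24 min that each of 22 members had reached at 10 and 14 min in fermentation BY005, in percent, by group of factors, with a dashed line at 100%. The eIF2B subunits have a median of 47.8% at 10 min and 90.6% at 14 min, ahead of the medians of the other groups named in the text. NIP1 of eIF3 and SUI2 of eIF2 lie past these eIF2B medians at both times. The medians of TIF4631 and TIF3 are 14.1% and 36.4%.

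By first call, 15 members were lower from 10 min, 9 more from 14 min (among them SUI1, GCD11, CDC33 and SUP45), and 4 from 24 min, these being PAB1, EFB1, TEF4 and YEF3. A first call depends on the size and error of a fall, so it is not an order of onset. At 10 min FUN12 and SUI3 (both -0.17, adjusted p = 0.055) just missed, and TIF34 (-0.20, adjusted p = 0.038) passed. The 4 first called at 24 min had changes of only -0.22 to -0.44 at that time. TIF11 and ANB1, called at 10 min, did not pass at 14 min. TIF4632 was called higher at 10 min (0.27 ± 0.08, adjusted p = 0.0266) and at 14 min (0.23 ± 0.08, adjusted p = 0.0404), with 10.70 and 10.66 against 10.49, 10.36 and 10.42 at steady state. Those calls were lost with the replicate block (adjusted p = 0.0702 and 0.101) and without the BY006 or the BY007 steady state array, and control scaling turned both values negative. The 14 min call was also lost without BY005 at 7 min, BY006 at 24 min or BY007 at 7 min (adjusted p up to 0.0954 over the arrays named), and with an intensity trend in the variance model (adjusted p = 0.0513). EAP1, TEF2, CAM1 and HYP2 were never called lower.

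**Figure D4:**
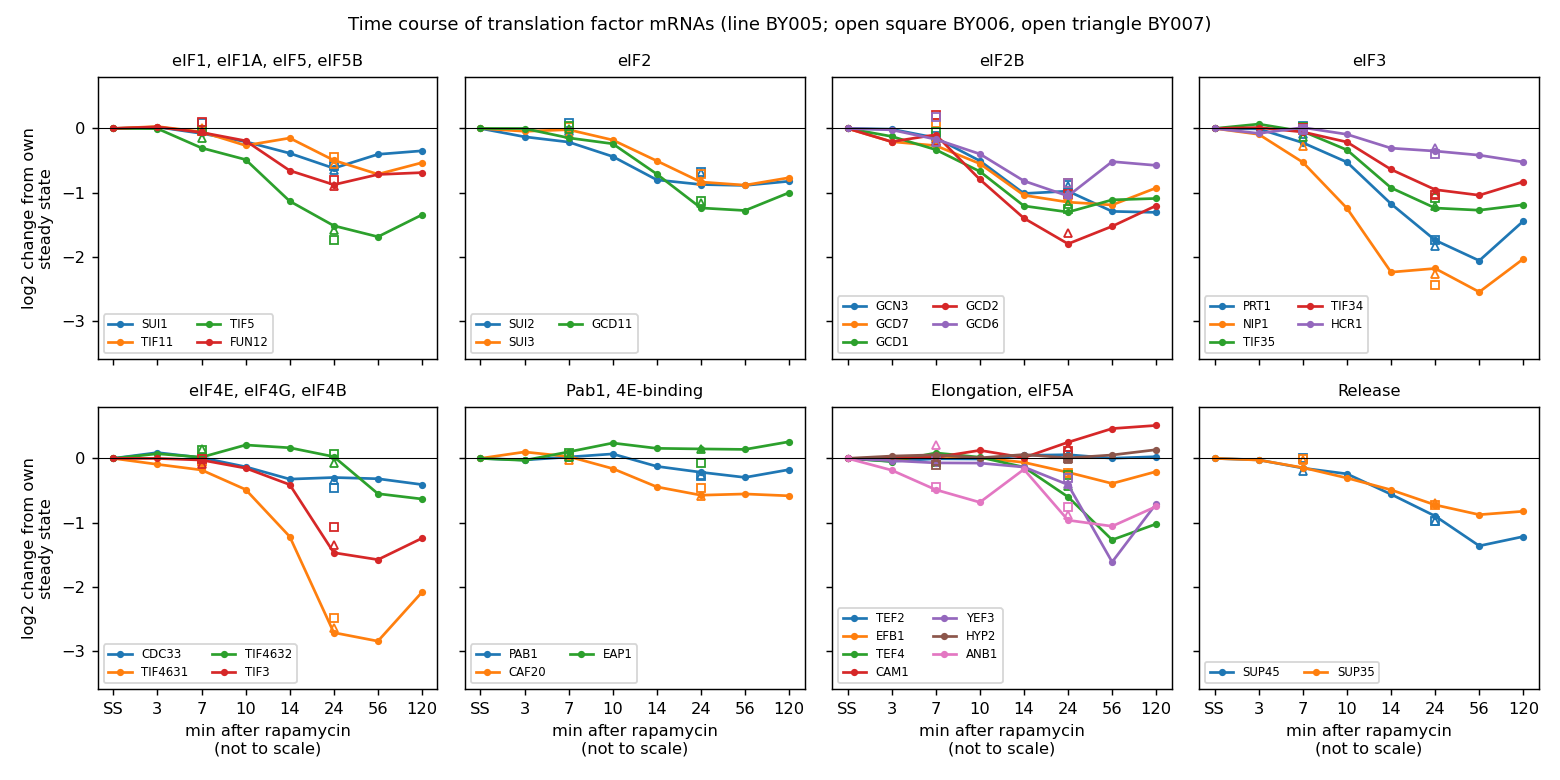
Log2 change from the steady state array of the same fermentation over time after rapamycin (min, not to scale), 1 panel per group of factors, with the line for BY005 and open symbols for BY006 and BY007 at 7 and 24 min. Most members of eIF2, eIF2B and eIF3 fall between 7 and 24 min and stay low to 120 min, YEF3 has its lowest value at 56 min and CAM1 rises, all on the authors' scale, on which control scaling turns 18 of 28 falls at 24 min positive.

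Late in the course most members were still low, and YEF3 and TEF4 read lower than at 24 min. At 56 min 29 members were lower and 1 was higher (25.7% and 45.3% of all genes), and at 120 min 29 were lower and 2 higher (25.3% and 41.4%). Relative to the median gene the members' medians were -1.08 and -0.86. YEF3 read 14.16 at steady state in BY005, 13.75 at 24 min, 12.54 at 56 min and 13.45 at 120 min, so that 56 min stood apart from the times on either side. The change at 56 min was -1.60 ± 0.06 (adjusted p = 6.38e-08), from a single array. TEF4 went from 13.57 to 12.97, 12.30 and 12.55 at the same times (-1.37 ± 0.16 at 56 min, adjusted p = 5.99e-05). CAM1 went from 12.86 to 13.12, 13.33 and 13.38 (0.48 ± 0.07 at 56 min, adjusted p = 0.000328). The direction of this 56 min change of CAM1 turned with control scaling. TIF4632 was called lower for the first time at 56 min, at 9.94 (-0.48 ± 0.08, adjusted p = 0.000711), and read 9.86 at 120 min.

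Between 24 and 120 min 8 members rose and 4 fell (24.2% and 12.1%), where 28.4% and 18.2% of all genes did. Relative to the median gene the members' median change was -0.01, with 17 members below it and 16 above. As a set the members thus moved no more than other genes, and control scaling turned all 8 rises. TIF4631 rose most, by 0.58 with an SE of 0.08 (adjusted p = 0.000487), from 9.11, 9.26 and 9.12 to 9.74, which was still below its steady state values of 11.75 to 11.83. GCD6 rose by 0.48, PRT1 by 0.38, CAM1 by 0.34, SUI1 by 0.31, GCD11 by 0.26, and TIF34 and FUN12 by 0.19 each. The last 2 calls did not hold with the replicate block (adjusted p = 0.0808 and 0.0562) or in 6 and 7 of the 9 fits that left out 1 array, and that of TIF34 was also lost with quantile normalization of the genes alone (adjusted p = 0.0677). Among these 9 fits TIF34 kept its call only without BY005 at 7 or 24 min or BY006 at 7 min, and FUN12 only without BY005 or BY006 at 7 min. GCD11 lost its call without BY007 at 24 min (adjusted p = 0.061). The falls were in TEF4, at -0.69 ± 0.16, TIF4632, at -0.57 ± 0.08, GCN3, at -0.39 ± 0.06, and YEF3, at -0.32 ± 0.06. These rises and falls set 1 array of BY005 against 3 cultures at 24 min. Within BY005 alone the 4 falls were -0.42, -0.66, -0.33 and -0.30, and CAM1 rose by 0.26 and TIF4631 by 0.63. From 56 to 120 min 27 of 33 members went up in BY005, 81.8% against 49.7% of all genes, led by YEF3 at 0.91. EAP1 was called higher at 120 min (0.24 ± 0.09, adjusted p = 0.0343), and lost the call with the replicate block (adjusted p = 0.086), with quantile normalization of the genes alone, and without any 1 of the steady state arrays, while control scaling gave -0.05.

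Of 50 further genes of the translation pathway, 45 were measured, and at 24 min 28 of them were lower and 11 higher, against 30.4% and 44.5% of all genes, with a median change of -0.47 against 0.11. Those with the largest changes were modifiers of the elongation factors and GTPases bound to the ribosome. LIA1, the deoxyhypusine hydroxylase that completes the modification of eIF5A, read 12.38, 12.51 and 12.47 at steady state and 8.79, 9.10 and 8.72 at 24 min, a 12-fold fall (-3.58 ± 0.10, adjusted p = 5.75e-08). DPH1, which starts diphthamide synthesis on eEF2, changed by -3.37 ± 0.11, and EFM4, a lysine methyltransferase of eEF1A, by -2.60 ± 0.08. The ribosome-associated GTPases RBG1 and RBG2 changed by -3.03 ± 0.14 and -2.95 ± 0.11. Of the genes that complete the members' complexes, TIF2 (eIF4A) changed by -0.20 ± 0.04 (adjusted p = 0.00191) and EFT2 (eEF2) by -0.12 ± 0.04 (adjusted p = 0.0236), both from probes shared with an identical copy. The EFT2 call was lost with quantile normalization of the genes alone and without BY005 or BY007 at steady state or BY006 at 24 min (adjusted p up to 0.0732 over these arrays), and control scaling turned both values positive.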

How the data were processed

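Total RNA was hybridised to Affymetrix yeast arrays, and the deposited intensities were made by the authors with RMA (package affy, R 2.10.0), per the submitters' processing notes. The values were on a linear scale, so log2 was taken first. Probe sets with 1 budding yeast gene were used (5449 genes, 12 symbols updated). The test was limma (version 3.58.1, R 4.3.3) on 14 arrays in 8 time groups, with no block, 6 residual degrees of freedom and 2.43 added by the prior. Single arrays took their error from the replicated times. The fit was checked on simulated data with known changes. Those data had independent noise of the same size at all times and no culture effect, so the check cannot test the assumption made for single arrays. The arrays' number limits the precision.

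Members and lists were chosen with earlier results of these data known. All members are named or counted, and of the other translation genes the 5 with the largest change at 24 min and those completing a member's complex. The times of a fermentation share a culture, per the labels, so they are paired. Deviations of arrays from 1 culture correlated with r from -0.164 to 0.528. For arrays of different cultures and times r ran from -0.519 to 0.399, so the ranges overlapped. Alternatives were the fermentation as a replicate block, quantile normalization of genes alone, scaling to hybridisation controls, a background filter, probe sets without shared probes, the replicated arrays alone, an intensity trend and leaving out each array.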

Additional observations from a re-analysis of the deposited data

How the results depend on the processing

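Counts of changed members kept within 1.5 times under every alternative run except scaling to hybridisation controls, which left 0 at 10, 14, 24 and 120 min, 1 at 56 min (TIF4631), 0 for 24 against 7 min and 0 for 120 against 24 min, and the removal of single arrays at 7 min, where the count ran from 0 to 1. Leaving out arrays gave 12 to 18 members at 10 min, 21 to 23 at 14 min and 29 to 30 at 24 min. The replicate block gave 13, 21, 29, 30 and 29 members at 10, 14, 24, 56 and 120 min, and 11 for 120 against 24 min. With control scaling these changes turned sign (log2). At 7 min they were GCD1 0.025 and GCN3 0.079. At 10 and 14 min TIF4632 had -0.28 and -0.68. At 24 min they were SUI1 0.40, TIF11 0.51, FUN12 0.15, SUI2 0.26, SUI3 0.23, GCN3 0.10, GCD6 0.042, TIF34 0.0072, HCR1 0.66, CDC33 0.65, PAB1 0.77, CAF20 0.47, EFB1 0.79, TEF4 0.58, YEF3 0.64, ANB1 0.15, SUP45 0.063, SUP35 0.30, TIF2 0.82, EFT2 0.89 and DYS1 0.49. CAM1 at 56 min had -0.47 and EAP1 at 120 min -0.055. For 120 against 24 min they were TIF4631 -0.73, CAM1 -0.97, GCD6 -0.84, SUI1 -1.0, PRT1 -0.93, FUN12 -1.12, TIF34 -1.12 and GCD11 -1.05. The cause was not tested. Changes near 0 turned elsewhere: TEF2 at 24 min had -0.057 with quantile normalization of genes alone, and without single arrays TIF4632 ran from -0.035 to 0.048 and HYP2 from -0.047 to 0.047. Arrays near the bright end limit TEF2, EFB1, YEF3 and HYP2.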

Other observations

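The other translation genes were sorted into groups after their values were seen, so the counts describe them only. At 24 min 5 of 7 mitochondrial translation factors were higher and 0 were lower, against 44.5% and 30.4% of all genes. MEF2, a mitochondrial elongation factor, read 9.76, 9.83 and 10.00 at steady state and 11.38, 11.68 and 11.57 at 24 min, a 3.22-fold rise (1.69 ± 0.10, adjusted p = 8.52e-07 by limma). Genes for modifying the cytoplasmic factors went the other way, with 9 of 10 lower, and control scaling turned 3 of these 9 (DYS1, EFM5 and DPH5). DYS1, the deoxyhypusine synthase that begins the modification of eIF5A, changed by -0.53 ± 0.09, and by 0.49 with control scaling.

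Paralogs outside the members also parted, and these pairs were chosen after their values were seen. HEF3, a copy of YEF3, read 7.92, 7.63 and 7.75 at steady state and 9.27, 9.11 and 9.06 at 24 min, and YEF3 minus HEF3 within an array changed by -1.76, -1.78 and -1.71 in BY005, BY006 and BY007. DED1, an RNA helicase of initiation, read 11.90, 11.62 and 11.72 at steady state and 10.67, 10.32 and 10.58 at 24 min, and its paralog DBP1 read 7.41, 7.15 and 7.02 at steady state and 9.01, 8.49 and 8.76 at 24 min. DED1 fell and DBP1 rose in each culture, and DED1 minus DBP1 changed by -2.78 in the mean. Differences within an array do not depend on its scaling by a single factor. HEF3 in BY005 went on to 9.88 at 56 min and 10.04 at 120 min, past every value at 24 min.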
